A study of Mus musculus with 20 samples.

Results

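Banp, Fry, Mtch2 and Tubb2a were 4 of the 23020 genes measured in small intestinal crypts of mice with and without Xiap. All 4 were found by gene symbol, 1 row each, and all passed the minimum mean level for testing, as did 9521 genes in all. They were chosen by their p-values: after the heat shock gene Hspa1b, they had the smallest p between the co-housed genotypes. That comparison is therefore given below as a description, without a test.

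RNA of 20 C57BL/6 libraries, taken here as 1 mouse each, was read from the 3' ends of polyadenylated transcripts. The groups were 6 wild-type and 4 Xiap-/- mice housed by genotype (housed apart here), and 5 wild-type and 5 Xiap-/- mice that had shared cages for 4 weeks (co-housed). The labels give neither the age nor the cage of a mouse, nor the deleted part of Xiap. Levels are the authors' normalized values on a log2 scale, so a difference of 1 is a doubling of the level.

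The 4 genes belong to unrelated cell functions. Banp encodes a nuclear DNA-binding protein of the BEN domain family that activates promoters holding an unmethylated CG-rich palindrome. Fry encodes a very large scaffold protein that binds and supports the NDR kinases, relatives of the LATS kinases of the Hippo growth pathway. Mtch2 encodes a protein of the mitochondrial outer membrane, related to the SLC25 carriers, that inserts other proteins into that membrane and serves as the docking site of the death protein BID. Tubb2a encodes a beta-tubulin, a building block of microtubules that is abundant in neurons. The XIAP protein, absent by design, blocks caspases that act downstream of mitochondrial death signals.

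On GRCm38, in the GENCODE M21 annotation, Banp (ENSMUSG00000025316.16) lies on the plus strand of chromosome 8, from 121949750 to 122029258. Fry (ENSMUSG00000056602.11) lies on the plus strand of chromosome 5, from 150118645 to 150497753. Mtch2 (ENSMUSG00000027282.17) lies on the plus strand of chromosome 2, from 90847155 to 90866810. Tubb2a (ENSMUSG00000058672.7) lies on the minus strand of chromosome 13, from 34074274 to 34078007. Its protein-coding transcript has 4 exons, while the longest exon counts of the others are 14 for Banp, 61 for Fry and 13 for Mtch2.

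Promoter sequences of 3 of the genes were found in RefSeq on GRCm38.p6 as windows of 300 bases that run from before to just after a transcript start. Banp had no entry. They were searched on both strands for CTCGCGAG, the core of the palindrome that the BANP protein binds, for TATAAA, the TATA box, and for TGACGTCA, the cyclic AMP response element. The windows of Mtch2 and Tubb2a are shown because they hold matches, which stand in capitals and do not overlap. They are chr2:90846905-90847204, plus strand, and chr13:34077959-34078258, minus strand, each read 5′ to 3′.
Mtch2: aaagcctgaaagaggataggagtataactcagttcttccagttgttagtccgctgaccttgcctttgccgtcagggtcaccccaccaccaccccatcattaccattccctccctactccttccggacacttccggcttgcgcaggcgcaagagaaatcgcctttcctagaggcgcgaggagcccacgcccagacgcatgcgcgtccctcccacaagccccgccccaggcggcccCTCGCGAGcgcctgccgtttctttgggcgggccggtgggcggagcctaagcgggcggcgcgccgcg
Tubb2a: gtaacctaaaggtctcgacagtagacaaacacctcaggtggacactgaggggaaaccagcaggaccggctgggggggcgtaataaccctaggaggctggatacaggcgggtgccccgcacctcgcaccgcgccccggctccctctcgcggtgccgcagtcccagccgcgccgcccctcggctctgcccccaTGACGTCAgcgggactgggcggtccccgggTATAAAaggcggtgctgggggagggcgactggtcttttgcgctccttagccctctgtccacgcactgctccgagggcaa

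The Mtch2 window held CTCGCGAG with its first base at position -16 from the start, a motif found in 0.919% of 32851 promoter windows. The Tubb2a window held TATAAA at -29 (13.6% of windows) and TGACGTCA at -59 (1.79% of windows). The Fry window in the table, chr5:150259680-150259979, starts inside the annotated gene and held none of the 3 motifs. Its GC content was 67.3%, beside 64.7% for Mtch2 and 67.0% for Tubb2a and a median of 52.7% over all windows. A match describes the letters only, and no measure of binding or methylation was made in these mice.

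Because only 3' ends were read, the last 500 bases of the protein-coding transcripts were compared with all other GENCODE transcripts in stretches of the read length, 75 bases. For Banp, Fry and Mtch2, 0 of 2368, 0 of 1089 and 0 of 596 stretches occurred in another gene. For Tubb2a, 141 of 426 stretches (33.1%) also occurred in its neighbour Tubb2b or in the pseudogene Tubb2a-ps2, so reads of these genes can be split between them. Tubb2b was listed at low levels, 1.83 to 2.18 in the 20 libraries, below the minimum mean of 3.32. Banp lies within the read-through gene model Gm20388 on the same strand, and Fry overlaps the antisense gene Gm42556. How the authors counted such reads is not given in the sources used here, and the levels of Tubb2a, Banp and Fry are uncertain in that respect.

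Most markers of crypt cells passed the minimum mean, although the extraction text names liver. All 8 Paneth cell markers passed it (highest Defa24, 14.17), as did all 5 stem cell markers, at lower levels (from Lgr5, 4.69, to Smoc2, 6.36). Of 7 goblet cell markers 6 passed (Zg16, 12.80), and Muc2 did not (-0.83). All 7 absorptive cell markers (Fabp2, 13.75) and all 9 T cell markers (Gzma, 9.16) passed too, so the RNA was not of Paneth, goblet and stem cells alone. Of 6 measured hepatocyte markers 1 passed (Ttr, 4.11). The depth of each library is unknown. A stand-in for it, the share of very rare genes above their own baseline, ran from 4.59% to 16.6% in 19 libraries and was 32.2% in Xiap-/- replicate 2 housed apart. Xiap transcript was still read in the Xiap-/- groups, at 6.38 ± 0.10 housed apart (SD, n = 4; wild-type 6.81 ± 0.17, n = 6) and at 6.62 ± 0.22 co-housed (n = 5; wild-type 6.67 ± 0.20, n = 5). Its 3' reads can lie outside the deleted part, so they do not check the genotype labels.

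Among co-housed mice, Banp and Tubb2a were higher in the Xiap-/- group, and Fry and Mtch2 were lower, by 0.45 to 0.54 in size on the log2 scale. In bulk crypts, fewer cells of a type and less RNA per cell cannot be told apart. The ranks by p were 2 for Fry, 3 for Banp, 4 for Mtch2 and 5 for Tubb2a, behind Hspa1b at rank 1. They depend on the fit: Tubb2a ranked 51 with only the co-housed groups fitted, and without co-housed wild-type replicate 1 the ranks were 5 for Fry, 10 for Banp, 17 for Mtch2 and 18 for Tubb2a. Adjusted p-values come from limma, a linear model fitted to all tested genes. Just inside the choice stood Tubb2a, with a difference of 0.45. Just outside were A930004J17Rik (difference -0.45, adjusted p = 0.0932 in limma), Gm43200 (-0.43, 0.0970) and 9630010A21Rik (-0.44, 0.0970). In this comparison 0.0315% of tested genes passed an adjusted p under 0.05 in limma, and 3.09% had groups that did not overlap. Since the comparison chose the genes, nothing is read from their own counts.

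**Figure D1:**
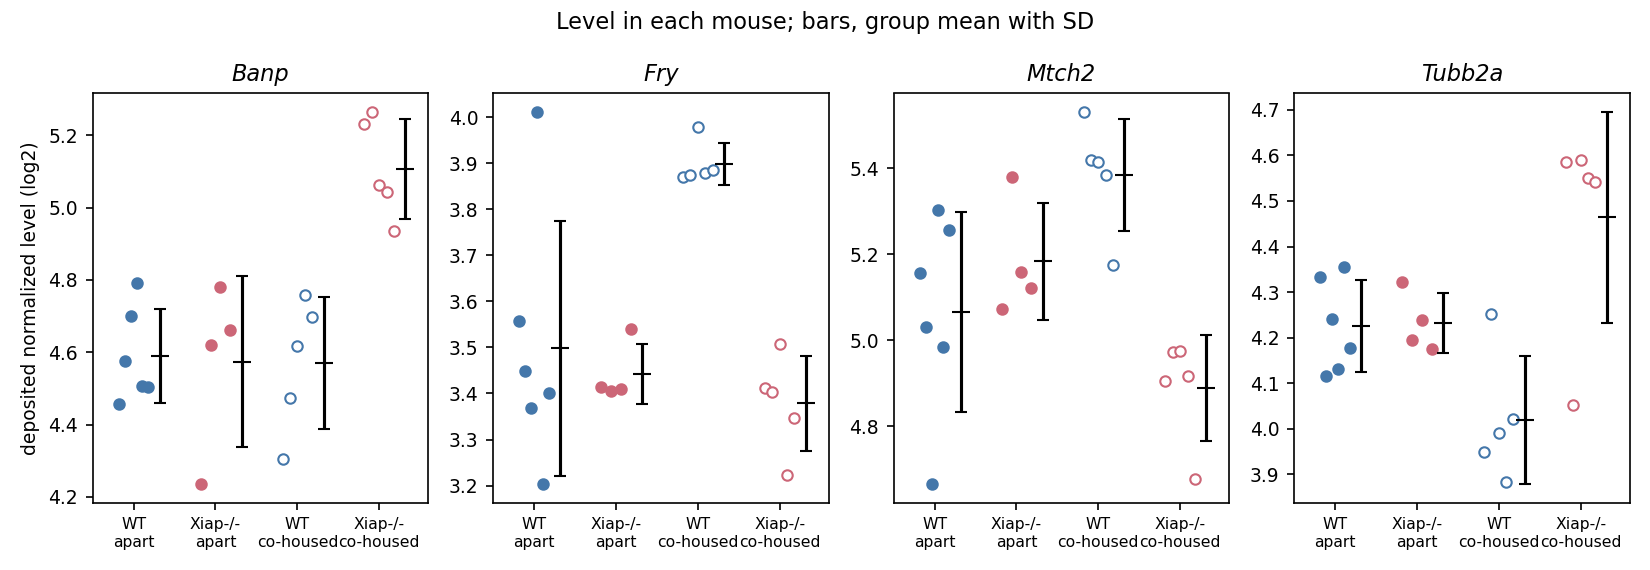
Deposited log2 level (y axis, a separate range for each gene) of Banp, Fry, Mtch2 and Tubb2a in each mouse by group; filled points are mice housed apart, open points co-housed mice, and bars give the group mean with its SD. Banp stood apart in co-housed Xiap-/- mice, at 4.94 to 5.26, and Fry was at 3.87 to 3.98 in co-housed wild-type mice, above all others but 1 wild-type mouse housed apart at 4.01. Mean Mtch2 was highest and mean Tubb2a lowest in co-housed wild-type mice.

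Banp was high in 1 group, and the other 3 groups overlapped. In co-housed Xiap-/- mice, replicates 1 to 5 were at 5.23, 5.26, 5.06, 5.04 and 4.94. In co-housed wild-type mice they were at 4.31, 4.47, 4.62, 4.76 and 4.70. Each Xiap-/- value lay above each wild-type value among co-housed mice, with a difference of 0.54 ± 0.10 (SE) or 1.45-fold. Among the mice housed apart, the 4 Xiap-/- values were 4.24, 4.62, 4.78 and 4.66, and the 6 wild-type values ranged from 4.46 to 4.79 with a median of 4.54. These groups overlapped throughout, and no mouse housed apart reached the lowest co-housed Xiap-/- value.

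Co-housed Xiap-/- mice had a mean Banp level of 5.11 ± 0.14 (SD, n = 5). The means were 4.59 ± 0.13 (n = 6) for wild-type and 4.57 ± 0.24 (n = 4) for Xiap-/- animals housed apart, and 4.57 ± 0.18 (n = 5) for wild-type animals sharing cages. The last 3 differed by less than their spread. Co-housed minus housed apart, the difference was 0.53 ± 0.11 (SE) in Xiap-/- mice, whose groups did not overlap, and -0.02 ± 0.10 in wild-type mice. The housing differences share the co-housed mice with the comparison that chose the genes, and are given without a test for all 4 genes.

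Fry was high in co-housed wild-type mice, with 1 further high mouse. In that group replicates 1 to 5 were at 3.87, 3.88, 3.98, 3.88 and 3.89, and in co-housed Xiap-/- mice at 3.41, 3.40, 3.51, 3.22 and 3.35. The co-housed groups were separate, with a difference of -0.52 ± 0.10 (SE), 0.698 of the wild-type level. Housed apart, the Xiap-/- mice were at 3.42, 3.41, 3.41 and 3.54, and the wild-type mice ranged from 3.20 to 4.01 around a median of 3.43. The mouse at 4.01 was wild-type replicate 4, higher than every co-housed wild-type mouse, while the other 5 lay at or below 3.56.

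Ordered by mean, co-housed wild-type mice came first for Fry, with 3.90 ± 0.05 (SD, n = 5). Wild-type animals housed apart followed with 3.50 ± 0.28 (n = 6), Xiap-/- animals housed apart with 3.44 ± 0.07 (n = 4) and co-housed Xiap-/- animals with 3.38 ± 0.10 (n = 5). The last 3 overlapped, and the first overlapped the second through replicate 4. The housing difference was 0.40 ± 0.09 (SE) in wild-type mice, or 0.50 without replicate 4 of the wild-type mice housed apart, and -0.06 ± 0.10 in Xiap-/- mice. Fry lies near the minimum mean for testing, with a mean of 3.56 over all libraries.

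For Mtch2, the co-housed genotypes lay on either side of the means of the mice housed apart. The co-housed wild-type replicates 1 to 5 were at 5.53, 5.42, 5.41, 5.38 and 5.17, and the co-housed Xiap-/- replicates at 4.90, 4.97, 4.97, 4.92 and 4.68. All Xiap-/- values were the lower ones, with a difference of -0.50 ± 0.10 (SE), 0.709 of the wild-type level. The Xiap-/- mice housed apart were at 5.07, 5.38, 5.16 and 5.12. The wild-type mice housed apart spread from 4.67 to 5.30 with a median of 5.09, and reached into both co-housed groups. Their lowest value belonged to replicate 3.

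In order, mean Mtch2 was 5.38 ± 0.13 (SD, n = 5) for co-housed wild-type, 5.18 ± 0.14 (n = 4) for Xiap-/- housed apart, 5.07 ± 0.23 (n = 6) for wild-type housed apart and 4.89 ± 0.12 (n = 5) for co-housed Xiap-/- mice. Each group overlapped its neighbour in this order. The Xiap-/- groups of the 2 housings did not overlap, as for 5.63% of tested genes. The housing difference was 0.32 ± 0.10 (SE) in wild-type and -0.30 ± 0.11 in Xiap-/- mice.

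Tubb2a had the ends of that order reversed, with co-housed Xiap-/- mice highest by mean and co-housed wild-type mice lowest. In co-housed Xiap-/- mice replicates 1 to 5 were at 4.59, 4.05, 4.59, 4.55 and 4.54, and in co-housed wild-type mice at 3.95, 4.25, 3.99, 3.88 and 4.02. The groups overlapped through Xiap-/- replicate 2 and wild-type replicate 2. The difference was 0.45 ± 0.09 (SE), 1.36-fold, and 0.55 without Xiap-/- replicate 2. Housed apart, Xiap-/- mice were at 4.32, 4.20, 4.24 and 4.17, and wild-type mice at 4.12 to 4.35 with a median of 4.21, all within one narrow band.

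Mean Tubb2a was 4.46 ± 0.23 (SD, n = 5) for co-housed Xiap-/- mice and 4.02 ± 0.14 (n = 5) for co-housed wild-type mice. Between these lay Xiap-/- animals housed apart, with 4.23 ± 0.07 (n = 4), and wild-type animals housed apart, with 4.23 ± 0.10 (n = 6). From highest to lowest, each group overlapped the next. The housing difference was 0.23 ± 0.10 (SE) in Xiap-/- and -0.21 ± 0.09 in wild-type mice. For the housing comparisons, 0% of tested genes passed in wild-type and 0.147% in Xiap-/- mice in limma, and 0.525% and 5.63% had groups that did not overlap. In wild-type mice 969 genes (10.2%) had an unadjusted p under 0.05, and 66 genes passed without replicate 4 of those housed apart. In Xiap-/- mice the count of 14 passing genes ran from 2 to 64 with single libraries left out.

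**Figure D2:**
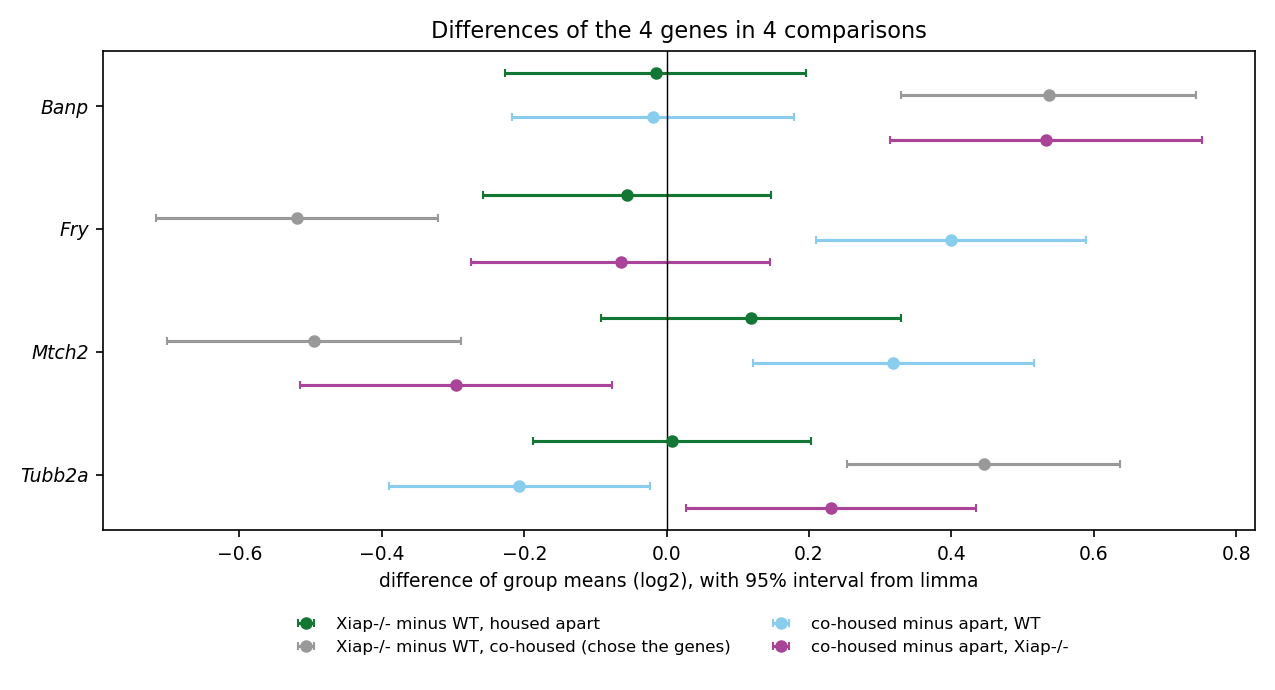
Difference of group means on the log2 scale (x axis) with its 95% interval from limma, for each gene in the genotype comparison of each housing and the housing comparison of each genotype. The genotype differences of mice housed apart lie between -0.06 and 0.12 with intervals across 0. The grey points are the comparison that chose the genes, so the place of their intervals beside 0 is no test. The housing differences share the co-housed mice with that comparison.

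The mice housed apart were not used to choose the genes, and the genotype difference was tested there. None of the 4 genes passed, in a comparison in which 0.452% of the 9521 tested genes did and 1.87% had groups that did not overlap. The count behind that share, 43, ran from 9 (without Xiap-/- replicate 2) to 697 (without wild-type replicate 5). All 4 pairs of groups overlapped. Banp had a difference of -0.02 ± 0.10 (SE, Xiap-/- minus wild-type; adjusted p = 0.965 in limma; 95% interval -0.23 to 0.20). Fry had a difference of -0.06 ± 0.10 (adjusted p = 0.836 in limma; -0.26 to 0.15). Mtch2 had a difference of 0.12 ± 0.10 (adjusted p = 0.614 in limma; -0.09 to 0.33), opposite in sign to its co-housed difference. Tubb2a had a difference of 0.01 ± 0.10 (adjusted p = 0.980 in limma; -0.19 to 0.20).

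Exact two-sided permutation tests over the 210 splits gave p = 0.876 for Banp, 0.857 for Fry, 0.429 for Mtch2 and 0.905 for Tubb2a. By size, Mtch2 ranked 3901 of the 9521 genes in mice housed apart, Fry 6535, Banp 8688 and Tubb2a 9094. The sign of the Fry difference rested on 1 mouse, being 0.05 without wild-type replicate 4. That of Mtch2 ran from 0.04 (without wild-type replicate 3) to 0.17 (without wild-type replicate 4) with single libraries left out, and was 0.20 with the level of the nuclear RNAs Malat1 and Neat1 as a covariate (adjusted p = 0.296 in limma). It was 0.05 without Xiap-/- replicate 2, the library with the high depth stand-in. Without that replicate the values were -0.03 for Banp, -0.04 for Fry and 0.02 for Tubb2a.

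The co-housed difference minus that of mice housed apart was 0.55 ± 0.15 (SE) for Banp, -0.46 ± 0.14 for Fry, -0.61 ± 0.15 for Mtch2 and 0.44 ± 0.13 for Tubb2a. These values contain the comparison that chose the genes and were not tested.

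The partners of each gene were read from lists of its pathway. None of their tested members passed in limma in any of the 4 comparisons. The counts at an unadjusted p under 0.05 in limma are given beside the share of all tested genes at that level, 12.02% between co-housed genotypes and 15.82% between genotypes housed apart. For Banp, 14 of 21 measured BEN domain, matrix attachment and partner genes were tested; 3 had such a p between the co-housed genotypes. Their co-housed differences ran from -0.26 to 0.25, with a median of -0.05 beside 0.00 for all tested genes to the nearest hundredth. The most abundant were Cdkn1a, the cell cycle inhibitor p21 (0.06 ± 0.11 between co-housed genotypes), and the nuclear matrix protein gene Matr3 (0.11 ± 0.11). Between genotypes housed apart 3 of the 14 had such a p, and the median was -0.03.

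For Fry, 21 of 28 measured genes of the NDR and LATS kinase pathway were tested, and 2 had an unadjusted p under 0.05 in limma in each genotype comparison. The medians were 0.01 between co-housed genotypes and -0.05 in mice housed apart. Stk38, one of the NDR kinases that Fry binds, had a co-housed difference of -0.06 ± 0.11 (7.30 against 7.36). The related kinase gene Stk25 had a co-housed difference of 0.06 ± 0.10. Fryl, the close relative of Fry, lay at 6.55 ± 0.14 (SD, n = 5) in co-housed Xiap-/- mice against 6.86 ± 0.12 (n = 5), without overlap, as 3.09% of tested genes did. Its difference of -0.31 ± 0.11 did not pass (adjusted p = 0.226 in limma). With limma's array quality weights its adjusted p was 0.0464, in a fit in which 159 genes passed instead of 3. In 29 of the 30 alternatives to the main fit, Fryl did not pass. Housed apart, Fryl had a difference of -0.17 ± 0.11 (adjusted p = 0.467 in limma).

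For Mtch2, 41 of 44 measured genes of the mitochondrial outer membrane and of apoptosis were tested. Unadjusted p-values under 0.05 in limma numbered 6 between co-housed genotypes and 8 in mice housed apart, and the medians were 0.02 and -0.05. The list holds Xiap itself, the gene changed by design, which is among the 8 (-0.43 ± 0.11). Their co-housed differences ran from -0.37 ± 0.09 for Apaf1 (adjusted p = 0.0970 in limma) to 0.36 ± 0.11 for Tomm5 (adjusted p = 0.183 in limma). The channel gene Vdac2, whose product regulates the death protein BAK, had a co-housed difference of -0.01 ± 0.09. Tomm7, of the import gate of the outer membrane, had one of 0.21 ± 0.11. Mtch1, the nearest relative of Mtch2, lay at 7.99 ± 0.03 (SD, n = 5) in co-housed Xiap-/- mice against 7.92 ± 0.08 (n = 5). Its difference was 0.07 ± 0.09 (adjusted p = 0.771 in limma) in co-housed mice and -0.18 ± 0.09 (adjusted p = 0.325 in limma) in mice housed apart, opposite in sign to Mtch2 in both.

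Of the SLC25 family, mostly carriers of the mitochondrial inner membrane, 31 of 44 measured genes were tested. They include Mtch1, which is also in the list of the outer membrane. Among them, 2 had an unadjusted p under 0.05 in limma between co-housed genotypes and 3 in mice housed apart. The medians were 0.00 and 0.01 to the nearest hundredth. Co-housed differences ran from -0.16 ± 0.11 for Slc25a34 to 0.36 ± 0.08 for Slc25a38 (adjusted p = 0.0970 in limma). The phosphate carrier gene Slc25a3 had a co-housed difference of -0.03 ± 0.09. The ADP/ATP carrier gene Slc25a5 had one of 0.12 ± 0.20, and in mice housed apart one of 0.51 ± 0.21 that did not pass (adjusted p = 0.251 in limma).

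For Tubb2a, 34 of 46 measured tubulins and factors for tubulin folding and microtubules were tested. Between co-housed genotypes 1 had an unadjusted p under 0.05 in limma, their differences ran from -0.27 to 0.19, and the median was 0.02. Housed apart, 4 had such a p and the median was 0.00 to the nearest hundredth. The other beta-tubulins that passed the minimum mean were Tubb4b and Tubb5. In co-housed Xiap-/- mice Tubb4b lay at 8.20 ± 0.09 (SD, n = 5) against 8.21 ± 0.08 (n = 5), and Tubb5 at 7.84 ± 0.06 against 7.91 ± 0.12. Their differences were -0.01 ± 0.10 (adjusted p = 0.978 in limma), with a sign that turned under median centring, and -0.07 ± 0.09 (adjusted p = 0.8005 in limma). The folding factor genes Pfdn5 and Cct2 had co-housed differences of 0.15 ± 0.10 and -0.03 ± 0.10. Enteric neuron and glia markers, cells rich in tubulin, were 0 of 9 above the minimum mean (highest Snap25, 0.61). Their summed level stayed between 2.18 and 2.27 in all libraries. Values this low lie near their own mean, so this narrow range does not measure the share of such cells, which was not tested.

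**Figure D3:**
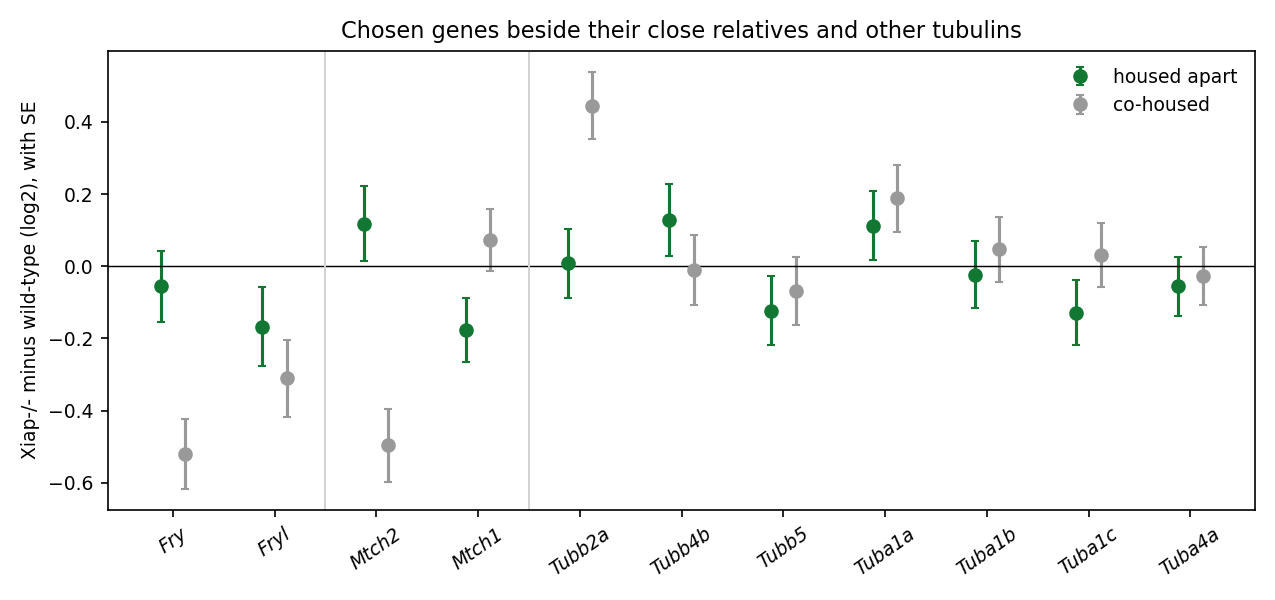
Xiap-/- minus wild-type difference on the log2 scale with its SE (y axis) in mice housed apart and co-housed mice, for Fry, Mtch2 and Tubb2a beside their relatives and the alpha-tubulins. Among the genes shown that were not chosen, the co-housed difference farthest from 0 is that of Fryl, at -0.31.

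The 4 genes were compared from mouse to mouse with the group means removed. Over the 20 libraries, none of the 6 pairs passed in permutation tests within groups adjusted over the pairs. The strongest was Banp with Tubb2a (Pearson r = -0.44, permutation p = 0.0424, adjusted p = 0.255; Spearman rho = -0.44, permutation p = 0.0598, adjusted p = 0.359; r = -0.56 without the 2 libraries farthest from the median of Banp). The next was Fry with Mtch2 (r = 0.43, permutation p = 0.217, adjusted p = 0.374; rho = 0.32, permutation p = 0.218, adjusted p = 0.436; r = 0.24 without the 2 farthest).

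The genes most like each of the 4 on these deviations are given as a description, since they are the highest of 9520 values of Pearson's r for each gene. These values can rest on single mice, and r without the farthest libraries was not taken for them. Fry in wild-type replicate 4 housed apart was at 4.01 (group mean 3.50), and Tubb2a in co-housed Xiap-/- replicate 2 at 4.05 (group mean 4.46). Fry was closest to the transcription factor gene Foxo1 (r = 0.91), the kinase gene Taok3 (0.88) and the methyltransferase gene Mettl2 (0.83). Mtch2 was closest to the transcription factor gene Nfat5 (r = 0.90), Bfar, of a regulator of apoptosis (0.88), and Mllt10 (0.83). Tubb2a was closest to Nufip1 (r = 0.84), Sap18 (0.77) and Zfp598 (0.75), and Banp to the mitochondrial ribosomal gene Mrps5 (r = 0.77), the asparagine synthetase gene Asns (0.73) and Smpd3 (0.73).

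The levels of 2 long RNAs that stay in the nucleus, Malat1 and Neat1, are set beside the 4 genes as a description, since they were chosen after their values were seen. On deviations from the group means over the 20 libraries, Mtch2 and Malat1 had r = 0.78 and rho = 0.68, and r = 0.66 without the 2 libraries farthest from the median of Malat1. With Neat1 the values were r = 0.71 and rho = 0.69, and r = 0.64 without the 2 farthest. For the other genes r with Malat1 was 0.10 for Banp, 0.49 for Fry and -0.24 for Tubb2a, and without the 2 farthest libraries 0.54, 0.58 and -0.52. The mouse with the lowest Mtch2 level, wild-type replicate 3 housed apart, also had the lowest Malat1 level, 11.23.

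In co-housed Xiap-/- mice Malat1 was at 12.27 ± 0.13 (SD, n = 5) against 12.43 ± 0.20 (n = 5), and Neat1 at 8.61 ± 0.14 against 8.81 ± 0.13, with overlap in both. With their mean level as a covariate, an alternative added after seeing the data, the co-housed Mtch2 difference was -0.39 instead of -0.50, and those of Fry, Banp and Tubb2a were -0.45, 0.56 and 0.42. The part of these RNAs in the differences was not tested.

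**Figure D4:**
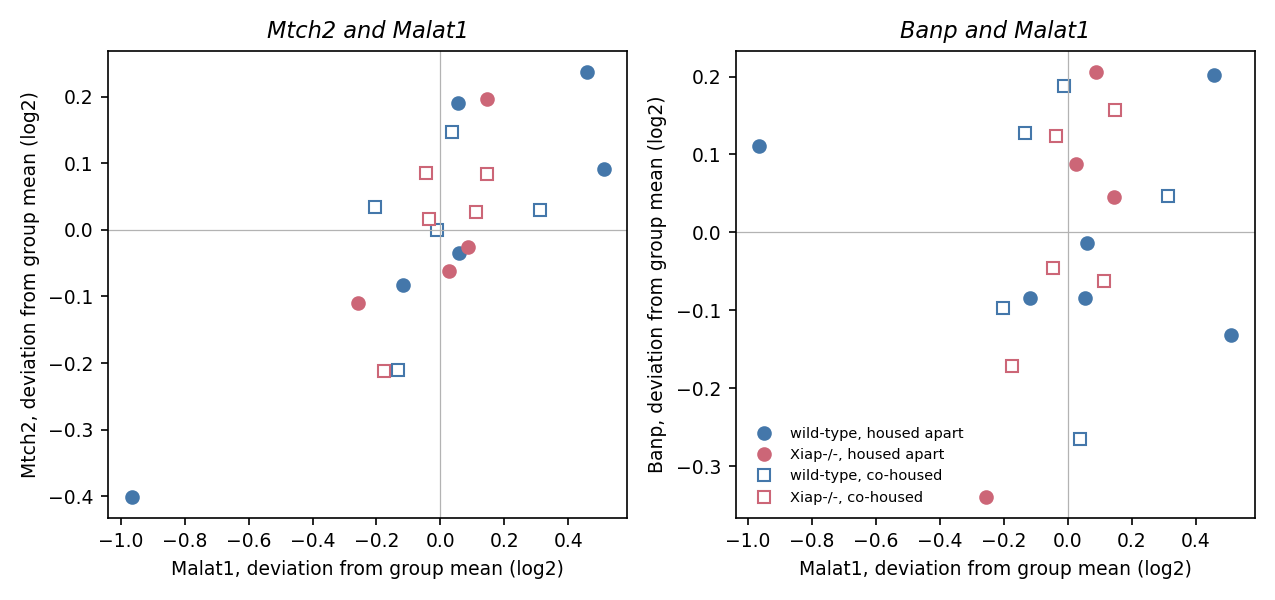
Deviation of Mtch2 (left) and Banp (right) from the group mean against that of Malat1, both on the log2 scale, 1 point per mouse by group. Mtch2 and Malat1 gave r = 0.78 (with 1 wild-type mouse housed apart far to the lower left), and Banp and Malat1 r = 0.10 over all libraries. Without the 2 libraries farthest from the median of Malat1, r was 0.66 for Mtch2 and 0.54 for Banp.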

How the data were processed

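The authors deposited normalized values on a log2 scale for 23020 genes in 20 libraries; these were used as they stand. DESeq2 1.18.1 and GRCm38.p6 are named per the submitters' processing notes, while the aligner, the counting and the transformation are not given in the sources used here. Values of weakly expressed genes lie near their own mean, so their differences may be understated. No counts are held in the values, so no counting interval is given.

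Genes with a mean of at least log2 of 10 were tested (9521 genes). All 20 libraries entered 1 linear model with a mean per group, in R 4.3.3 with limma 3.58.1 (variance trend, robust moderation, 16 residual degrees of freedom). Tests were two-sided, with Benjamini-Hochberg adjustment over all tested genes and a threshold of 0.05. The model was checked on simulated data with independent noise for each gene and library. That check does not cover shifts shared by many genes or libraries far from the rest. The labels do not say that libraries come from separate animals or name cages, so p-values measure only the spread between these libraries. Correlations used 100000 permutations within groups (scipy 1.17.1). The members and lists were chosen with earlier results of these data known. For each list without passing genes the 2 with the highest mean are named, besides close relatives and some genes at the ends of a range. For a comparison by promoter motif across genes, only 74.2% of tested genes had a promoter entry, and it was left out as void. Library pairs correlated at 0.973 to 0.996 and none held identical values. Alternatives were the fit of 2 groups only, no trend, library weights, other filters, 2 scalings, covariates, a replicate block and leaving out each library.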

Additional observations from a re-analysis of the deposited data

Results flagged for a closer look

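In 32 groups of mice (the 4 genes, Fryl, Mtch1, Tubb4b and Tubb5, in 4 groups each), 5 held a mouse far from the others by Dixon's ratio, the gap to the nearest mouse divided by the range; chance gives about 1 in 20. Tubb2a in co-housed Xiap-/- replicate 2 was at 4.05, with the nearest at 4.54 (ratio 0.910). Fry in Xiap-/- replicate 4 housed apart was at 3.54, with the nearest at 3.42 (ratio 0.926), and in co-housed wild-type replicate 3 at 3.98, with the nearest at 3.89 (ratio 0.860). Mtch2 in co-housed Xiap-/- replicate 5 was at 4.68, with the nearest at 4.90 (ratio 0.768). Mtch1 in co-housed wild-type replicate 1 was at 7.79, with the nearest at 7.93 (ratio 0.735). No mouse was left out of the main values.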

How the results depend on the processing

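Housed apart, none of the 4 genes passed under any alternative that could test it (adjusted p in limma from 0.296 to 0.995). Signs of near-zero differences turned, and the cause was not tested: Banp was 0.0090 with library weights and 0.0043 with the Malat1 and Neat1 covariate, and Tubb2a was -0.028 with library weights, -0.030 with the depth stand-in as covariate and -0.015 with the Malat1 and Neat1 covariate. With single libraries left out, Banp ran from -0.084 to 0.098, Fry from -0.115 to 0.047, Mtch2 from 0.038 to 0.165 and Tubb2a from -0.022 to 0.034. Mtch2 was 0.20 with the Malat1 and Neat1 covariate. The housing difference of Banp in wild-type mice was 0.016 with library weights, and -0.066 to 0.047 with single libraries left out. Tubb4b between co-housed genotypes was 0.00027 with median centring, and -0.042 to 0.023 with single libraries left out. The co-housed differences of the 4 genes kept their sign in all alternatives run, 29 for Banp, Fry and Tubb2a and 30 for Mtch2. Since this comparison chose the genes, those signs could hardly turn, and they are no check on the differences. A minimum mean of 5 left out Banp, Fry and Tubb2a.

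The count of genes passing between genotypes housed apart, 43, was 12 with only these 2 groups fitted, 65 without trend and robust moderation, 385 with library weights, 27 with a minimum mean of 5, 3 with the depth stand-in, 27 with the Malat1 and Neat1 covariate, and 9 to 697 with single libraries left out. With the replicate number as a block it was 350. The labels do not say that numbers pair mice. Same-numbered mice housed apart correlated at 0.07 to 0.25, with a mean of 0.16, beside a mean of -0.03 for other numbers. Of these mice, 2 of 4 wild-type and 1 of 4 Xiap-/- mice correlated best with their own number. Between co-housed genotypes the count of 3 was 142 with only these groups, 159 with library weights, 10 without a filter, 0 with a minimum mean of 5, and 1 to 12 with single libraries left out. Between the housings of wild-type mice the count of 0 was 5 with library weights, 5 without a filter, and 0 to 66 with single libraries left out. Between those of Xiap-/- mice the count of 14 was 169 with only these groups, 23 without trend and robust moderation, 224 with library weights, 9 with a minimum mean of 5, 1 with the depth stand-in, 189 with the replicate block, 8 with the Malat1 and Neat1 covariate, and 2 to 64 with single libraries left out. Counts for the gene lists rose above 0 in 25 of 600 combinations of list, comparison and alternative.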
